A study of Rattus norvegicus with 75 samples.

Results

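The comparison described here sets the untreated cortical collecting duct (CCD) against the untreated cortical thick ascending limb (cTAL) of the rat kidney. Its members are the 29 of the 75 libraries that the labels give as control at 72 h, 17 of CCD and 12 of cTAL, and every gene tested in them was compared. The study fed rats food with or without lithium chloride and measured messenger RNA by RNA sequencing in tubule segments that had been dissected from the kidney by hand. The rats of both groups were Sprague-Dawley males that weighed 120 to 160 g, housed 1 to a cage, which ate food without lithium for 72 h, and both groups carry no other agent. Lithium libraries at 72 h, 19 of CCD and 10 of cTAL, are set beside the controls in places. Their rats ate food with 40 mM lithium chloride per kg. RNA was copied to full-length cDNA with a SMARTer V4 kit, amplified for 15 cycles, and 1 ng of it went into each Nextera XT library preparation. The protocol text names the collecting duct in both places where the 2 segments would stand, so the segment of each library was taken from its title and source name. No label ties a library to an animal, so p-values here reflect only how far libraries of 1 group lie apart, and that spread may be technical.

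The CCD is built of 2 kinds of cell. Principal cells take up sodium through the epithelial sodium channel and water through aquaporins, under aldosterone and vasopressin, and intercalated cells move acid, base and ammonia with a proton pump and anion exchangers. The cTAL takes up sodium, potassium and chloride without water and drives calcium and magnesium through the gaps between its cells, work that rests on a high rate of sodium pumping and on many mitochondria.

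Values are TPM, the abundance of transcripts scaled to a common total, which are corrected for gene length and library total, so levels of different genes may be set side by side, but the depth of sequencing is unknown. Differences are CCD minus cTAL on the scale log2(TPM + 1), which understates the change of low genes, and were tested with limma over 13083 genes with Benjamini-Hochberg adjustment. The libraries listed between 10888 and 12290 genes at 1 TPM or more. Genes with a symbol starting with Mt-, here called mitochondrially encoded, held 7.23 to 12.9% of TPM in CCD libraries and 12.0 to 17.9% in cTAL libraries. The row AY172581.24, which 1 alternative below also treated as mitochondrial, was not counted in this share. It averaged 21729 TPM in CCD and 23595 TPM in cTAL. The 10 highest genes held 10.8 to 20.4% of TPM in CCD libraries and 21.2 to 28.1% in cTAL libraries. Each of 6 genes, chosen after the data were seen, split the libraries at 72 h into a high and a low state. By the combination of these states, the control libraries fell into 4 sets, each with libraries of both segments: CCD 1 to 4 with cTAL 1, CCD 5 to 8 with cTAL 2 to 5, CCD 9 to 12 with cTAL 6 to 8, and CCD 13 to 17 with cTAL 9 to 12. These sets were found in the data, and the labels do not say what they share. The lowest and highest difference among the 4 sets is called the set range. The difference of the first set rests on 1 cTAL library, which also has the weight of a whole set in the means of sets.

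The 2 segments differed over much of the transcriptome. At an adjusted p under 0.05, 8795 of 13083 genes were called, which is 67.2%, with 6133 higher in CCD (46.9%) and 2662 lower (20.3%). With a difference of at least 2-fold as well, 1500 genes were higher in CCD (11.5%) and 1292 were lower (9.88%), and these 2 shares are the background for every list below. All 17 CCD libraries lay above all 12 cTAL libraries for 1091 genes (8.34%) and below them for 698 (5.34%). Of the 2792 genes called at 2-fold, 211 were at least 10-fold higher and 150 at least 10-fold lower, and 2504 (89.7%) had the same direction in each of the 4 sets. The genes were called on these same libraries, so that share is raised by the choice of genes and is no replication. The median difference of all genes was 0.25 on the log2 scale. Scaling the libraries by the median of ratios shifted that median by -0.26 and turned the 2-fold counts to 1099 higher and 1575 lower, and the counts at any fold to 3779 higher and 3966 lower, so a modest difference in CCD is best read against this shift. In the lithium libraries of the same segments, 2771 of the 2792 genes had the same direction and 2205 (79.0%) were called there at 2-fold too. Those libraries share 1 fit with the controls.

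**Figure D1:**
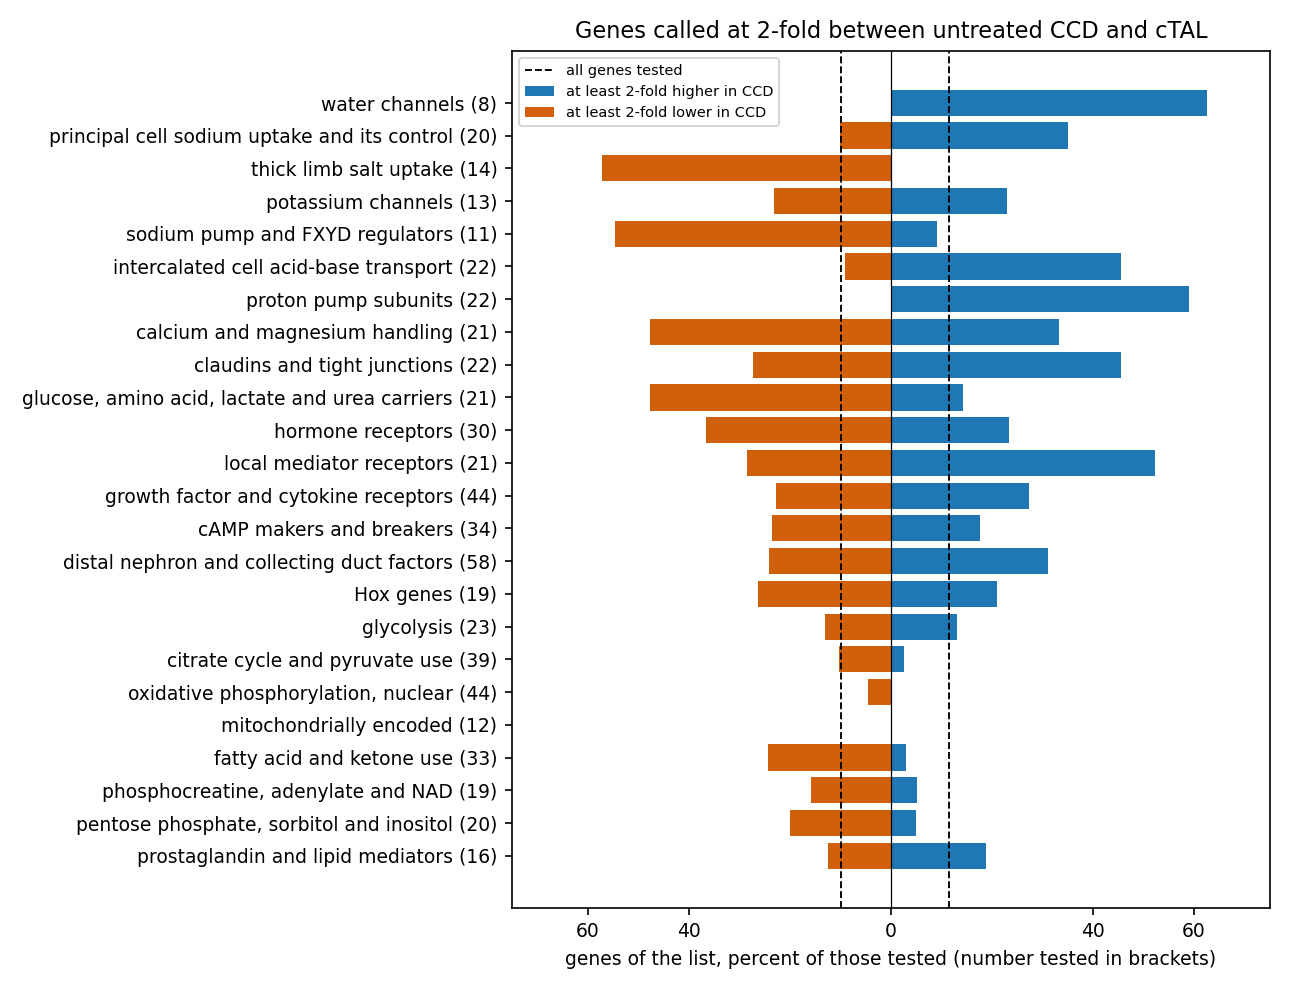
Share of the tested genes of each of 24 lists that was at least 2-fold higher in CCD (bars to the right, percent) or lower in CCD (bars to the left, percent) at an adjusted p under 0.05; dashed lines mark the same shares over all 13083 genes, 11.5% and 9.88%. Proton pump subunits (13 of 22) and water channels (5 of 8) reach farthest to the right, and thick limb salt uptake genes (8 of 14) farthest to the left.

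The dissection was described with marker genes. Their lists were chosen with earlier results of these data known, so they cannot test it. All 10 principal cell markers and all 10 intercalated cell markers were at least 2-fold higher in CCD, with no overlap between the segments. Summed, the principal cell markers read 11739 to 18970 TPM in CCD libraries and 67.9 to 173 TPM in cTAL libraries, and the intercalated cell markers 8584 to 12330 and 189 to 370.0 TPM. The 9 thick limb markers tested were all lower in CCD, 8 of them at 2-fold. They summed to 747 to 1658 TPM in CCD and 50969 to 87388 TPM in cTAL. Umod, a member of this list, alone read 45255 to 79244 TPM in cTAL and 25.1 to 142 TPM in CCD. The cTAL sum was thus mostly that gene, and the CCD sum mostly other members of the list. In whole segments, fewer cells of a type and less RNA per cell cannot be told apart.

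Markers of other cell types were found in both segments, some lists higher in cTAL and some in CCD. The 14 immune markers summed to 24.4 to 634 TPM in CCD and 2154 to 6561 TPM in cTAL, and all 13 tested were called lower in CCD, 12 at 2-fold. Among them Cd74, the invariant chain of class II histocompatibility molecules, ran from 1293 to 3959 TPM (median 1703) in cTAL and 7.51 to 341 TPM (median 113) in CCD, while Ptprc, the common leukocyte antigen, reached no more than 7.66 TPM in any of these libraries. The 11 endothelial markers summed to 30.0 to 260.0 TPM in CCD and 277 to 739 TPM in cTAL, and all 11 were called lower in CCD. The 17 proximal tubule markers summed to 59.1 to 641 TPM in CCD and 764 to 1359 TPM in cTAL. Slc34a1, the phosphate carrier of the proximal brush border, read 2.29 to 49.1 TPM (median 11.8) in cTAL. Its call as lower in CCD was lost in several alternatives, such as a pseudocount of 0.1 TPM (limma, adjusted p = 0.0616). The other way, the 9 thin limb markers summed to 283 to 512 TPM in CCD and 111 to 204 TPM in cTAL, and the 6 podocyte markers to 34.0 to 65.5 TPM and 11.9 to 27.8 TPM, both without overlap. The thin limb list holds Cldn4 and Slc9a4, which are also described here among genes of CCD. The 9 markers of the distal convoluted and connecting tubule summed to 65.0 to 307 TPM (median 139) in CCD and 49.0 to 120.0 TPM (median 79.1) in cTAL, and 4 of the 6 tested were at least 2-fold higher in CCD. The 11 fibroblast and smooth muscle markers summed to 9.41 to 35.8 TPM in CCD and 9.58 to 113 TPM in cTAL. The part these cells play in the differences below was not tested, and it bears most on genes that such cells also express.

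At the 2 ends of the comparison stood Aqp2 and Umod. Aqp2 (ENSRNOG00000054378), the vasopressin-regulated water channel of the principal cell, read 3434 to 7328 TPM (median 4706) in the 17 CCD libraries and 2.11 to 9.07 TPM (median 4.57) in the 12 cTAL libraries. The segments did not overlap, and the difference was 9.72 (SE 0.143, limma, adjusted p = 6.69e-55). Umod (ENSRNOG00000015557) encodes uromodulin, the most abundant protein that the thick limb releases into urine, and it read 45255 to 79244 TPM (median 67817) in cTAL, where it was the gene with the highest mean. CCD libraries held 25.1 to 142 TPM (median 65.0) of Umod, a difference of -9.99 (SE 0.282, limma, adjusted p = 1.01e-39).

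The 250 bases upstream of the start site are shown for 4 genes that separate the segments, 2 of each, because they hold letters that transcription factors of these segments are known to bind. Sequences are those of RefSeq on the assembly GRCr8, each read 5′ to 3′ on the strand of its gene, and capitals mark every match to the 5 words below. They were chosen after the matches were seen. The windows are chr7:132590036-132590285 on the plus strand for Aqp2, chr4:117781194-117781443 on the plus strand for Atp6v1b1, chr1:183261017-183261266 on the minus strand for Umod and chr15:102269608-102269857 on the plus strand for Cldn10, each just before the first exon of the start site that RefSeq lists.
Aqp2: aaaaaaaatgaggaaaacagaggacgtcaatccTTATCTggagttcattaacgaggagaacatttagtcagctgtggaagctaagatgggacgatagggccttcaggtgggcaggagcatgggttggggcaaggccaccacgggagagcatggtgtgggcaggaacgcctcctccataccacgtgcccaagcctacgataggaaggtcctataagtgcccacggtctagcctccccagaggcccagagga
Atp6v1b1: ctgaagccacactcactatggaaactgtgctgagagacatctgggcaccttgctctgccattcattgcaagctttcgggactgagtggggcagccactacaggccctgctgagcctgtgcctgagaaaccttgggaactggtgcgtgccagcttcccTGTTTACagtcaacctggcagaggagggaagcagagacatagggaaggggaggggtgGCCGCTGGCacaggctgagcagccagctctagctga
Umod: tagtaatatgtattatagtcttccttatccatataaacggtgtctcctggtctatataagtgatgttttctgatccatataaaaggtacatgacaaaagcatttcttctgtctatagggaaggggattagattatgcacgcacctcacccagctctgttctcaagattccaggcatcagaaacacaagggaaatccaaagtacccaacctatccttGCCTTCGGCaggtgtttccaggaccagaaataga
Cldn10: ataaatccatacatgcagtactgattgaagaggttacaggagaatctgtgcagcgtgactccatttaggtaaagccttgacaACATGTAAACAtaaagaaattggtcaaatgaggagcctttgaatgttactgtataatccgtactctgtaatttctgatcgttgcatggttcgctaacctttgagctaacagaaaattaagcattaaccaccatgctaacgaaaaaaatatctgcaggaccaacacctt
Counted back from the start site, the window of Aqp2 held the GATA word AGATAA on the opposite strand from -217 to -212. That of Atp6v1b1, the B1 subunit of the intercalated cell proton pump, held the forkhead word TGTTTAC from -93 to -87 and the AP-2 word GCCNNNGGC from -36 to -28. That of Umod held the AP-2 word from -34 to -26. That of Cldn10, the sodium-selective claudin gene of the thick limb, held the Iroquois word ACATGT from -168 to -163, which overlaps a forkhead word on the opposite strand from -164 to -158. Both strands were searched, and none of the 4 windows held AAGGTCA, the word of the oestrogen related receptors. Over all 33469 RefSeq windows of this length, 3.21% held the forkhead word, 10.3% the GATA word, 4.89% the Iroquois word, 12.6% the AP-2 word and 3.99% AAGGTCA. Of the tested genes, 9232 matched a window by symbol, and the words were held at these rates: 22 of 1067 genes at least 2-fold higher in CCD (2.06%) and 29 of 880 lower ones (3.30%) held the forkhead word, against 146 of 7285 others (2.00%). The Iroquois word was held by 21 of 1067 (1.97%), 27 of 880 (3.07%) and 182 of 7285 (2.50%). The AP-2 word was held by 243 of 1067 (22.8%), 183 of 880 (20.8%) and 1598 of 7285 (21.9%), and the GATA word by 64 of 1067 (6.00%), 64 of 880 (7.27%) and 419 of 7285 (5.75%). AAGGTCA was held by 32 of 1067 (3.00%), 32 of 880 (3.64%) and 190 of 7285 (2.61%). A match is a description of letters, not of a bound site.

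Water channels lay on the CCD side. Of the 8 tested, 5 were at least 2-fold higher in CCD and none lower, with a median difference of 3.45 against 0.25 over all genes. Aqp3, the water exit of the principal cell's basolateral membrane, read 1355 to 3996 TPM (median 2757) in CCD and 1.58 to 12.2 TPM (median 3.48) in cTAL. Aqp4, its lower partner on the same membrane, read 39.7 to 101 TPM (median 70.7) against 0.05 to 1.21 TPM (median 0.20). Aqp6, an intracellular channel of intercalated cells, read 119.8 to 435.5 TPM (median 200.0) against 0 to 1.25 TPM (median 0.315). For these 3 genes no cTAL library reached any CCD library, and the differences were 9.17, 5.70 and 7.29. Aqp1, the constitutive channel of the proximal tubule and thin limb, stayed low in both, with 0 to 13.8 TPM (median 0.43) in CCD and 0 to 6.26 TPM (median 1.15) in cTAL, and did not pass the test (limma, adjusted p = 0.316).

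The 3 subunits of the epithelial sodium channel did not move alike. Scnn1g, the gamma subunit, read 369.6 to 818 TPM (median 585) in CCD and 0.30 to 1.8 TPM (median 0.75) in cTAL. Scnn1b, the beta subunit, read 359 to 814 TPM (median 675) in CCD and 2.61 to 12.3 TPM (median 7.0) in cTAL. Both were without overlap, with differences of 8.38 and 6.39. Scnn1a, the alpha subunit, was present in both segments, with 86.2 to 242 TPM (median 192) in CCD and 46.3 to 155 TPM (median 93.3) in cTAL. Its groups overlapped, and its difference of 0.86 (SE 0.17, limma, adjusted p = 1.24e-05) stayed under 2-fold. In the lithium libraries the difference of Scnn1a was -0.16. Hsd11b2, the enzyme that keeps glucocorticoids off the mineralocorticoid receptor, read 3070.0 to 4546 TPM (median 3764.5) in CCD and 25.9 to 58.1 TPM (median 37.6) in cTAL. Nr3c2, that receptor, differed less, with 36.8 to 129.7 TPM (median 77.6) against 16.4 to 30.5 TPM (median 24.5) and no overlap. The list also held 2 genes that ran the other way. Tsc22d3, the glucocorticoid-induced leucine zipper, read 60.1 to 109 TPM (median 89.1) in CCD and 133 to 666 TPM (median 385) in cTAL. Wnk1, a kinase that sets salt transport, read 5.95 to 20.5 TPM (median 13.7) in CCD and 76.8 to 213 TPM (median 122) in cTAL. Of the 20 genes of this list, 7 were at least 2-fold higher and 2 lower in CCD.

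Salt uptake genes of the thick limb lay on the other side. Of 14 tested, 8 were at least 2-fold lower in CCD and none higher, and their median difference was -2.37. Slc12a1, the sodium potassium chloride cotransporter that furosemide blocks, read 1576 to 4215 TPM (median 3235) in cTAL and 0.65 to 14.5 TPM (median 2.77) in CCD, a difference of -9.46 (SE 0.311, limma, adjusted p = 3.61e-36). Slc9a3, the apical sodium hydrogen exchanger, read 56.5 to 179 TPM (median 140.0) in cTAL, and no CCD library exceeded 0.58 TPM. In CCD another member of that family led: Slc9a4 held 73.7 to 83.4% of the family's summed TPM in CCD libraries, and Slc9a3 84.5 to 93.4% in cTAL libraries. Bsnd, which encodes the membrane protein barttin, read 206 to 386 TPM (median 302) in CCD and 255 to 411 TPM (median 319) in cTAL and did not pass the test (difference -0.08, limma, adjusted p = 0.251), but did with median-of-ratios scaling (-0.36, limma, adjusted p = 8e-07).

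**Figure D2:**
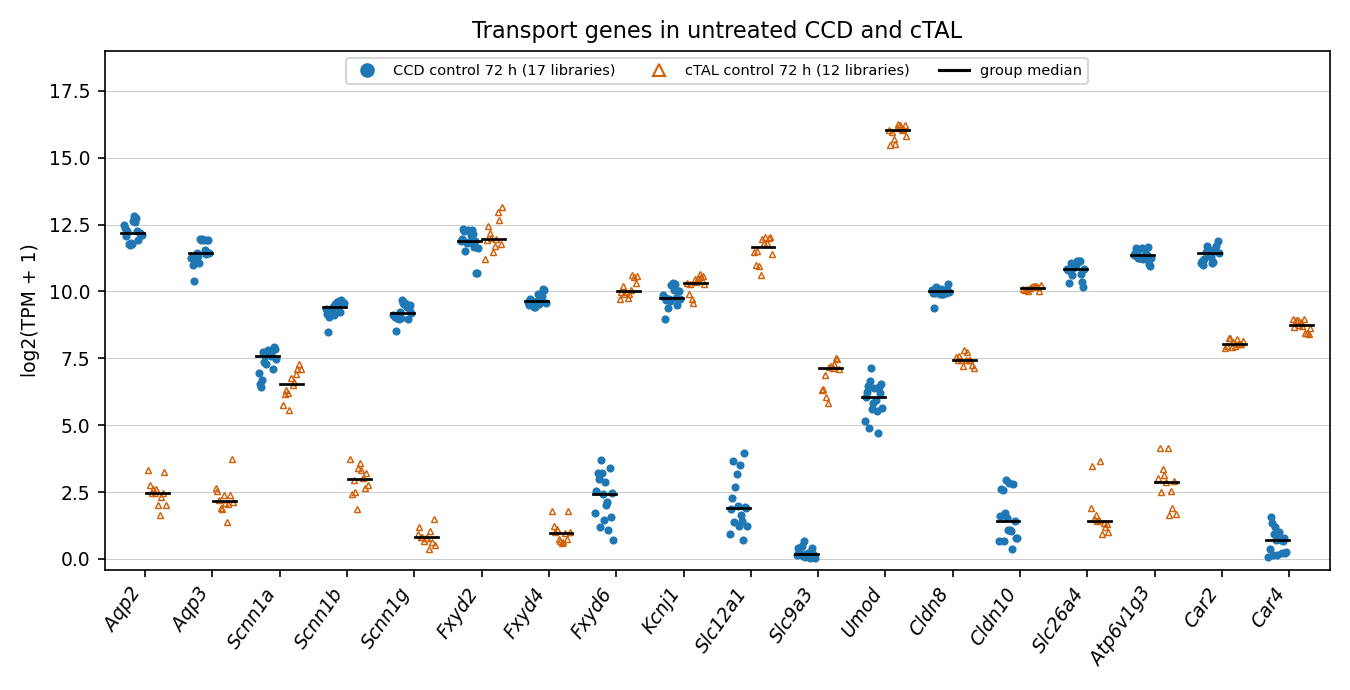
Level of 18 transport genes in each library, on the scale log2(TPM + 1), with CCD libraries as filled circles and cTAL libraries as open triangles, and a short line at each group's median. Aqp2, Scnn1g, Slc26a4 and Atp6v1g3 lie high in CCD and low in cTAL, Slc12a1, Umod and Cldn10 lie the other way, and Scnn1a, Kcnj1 and Fxyd2 lie high in both.

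Potassium channels were split by partner as well as by segment. Kcnj1, the apical potassium channel ROMK through which both segments secrete or recycle potassium, read 505 to 1278 TPM (median 874) in CCD and 759 to 1591 TPM (median 1291) in cTAL, with overlapping groups and a difference of -0.46. Kcne1, a small subunit of the channel Kcnq1, read 385 to 909 TPM (median 727) in CCD, while no cTAL library exceeded 1.54 TPM. Kcnq1 itself differed far less, with 127 to 261 TPM (median 211) against 20.5 to 107 TPM (median 62.0). Kcnma1, the pore of the flow-activated BK channel, was low but without overlap, at 4.73 to 15.7 TPM (median 8.79) in CCD and 0 to 0.79 TPM (median 0.165) in cTAL. On the cTAL side, Kcnt1, a sodium-activated potassium channel, read 55.6 to 120.2 TPM (median 84.1) against 0.01 to 0.73 TPM (median 0.07), and Kcnj16, the basolateral Kir5.1 subunit, 165 to 303 TPM (median 236) against 12.1 to 56.1 TPM (median 31.2). Its partner Kcnj10 was low in both, 1.98 to 4.85 TPM (median 2.76) in CCD and 1.95 to 11.2 TPM (median 6.51) in cTAL.

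Of the small regulators of the sodium pump, some were exchanged between the segments. Atp1b1, the beta subunit of the pump, was higher in cTAL, with a difference of -0.51. FXYD proteins tune the pump. Fxyd2, the gamma subunit, read 1656 to 5172.5 TPM (median 3759) in CCD and 2381 to 9161 TPM (median 4029.6) in cTAL and did not pass the test (limma, adjusted p = 0.0993, set range -1.32 to 0.90), but did with median-of-ratios scaling (-0.59, limma, adjusted p = 0.00768). It held the largest part of the family's summed TPM in every library. The second place changed hands. Fxyd4, also called CHIF, read 679 to 1091 TPM (median 797) in CCD and 0.50 to 2.48 TPM (median 0.975) in cTAL. Fxyd6, phosphohippolin, read 0.63 to 11.8 TPM (median 4.38) in CCD and 849 to 1573 TPM (median 1041.5) in cTAL. Fxyd4 thereby made up 12.3 to 39.5% of the family in CCD and at most 0.0744% in cTAL, and Fxyd6 14.1 to 26.7% in cTAL and at most 0.267% in CCD. Fxyd1 and Fxyd5, at lower levels, were also on the cTAL side, with 10.3 to 25.9 TPM (median 18.8) and 17.2 to 57.6 TPM (median 30.8) there. Fxyd1 was listed at 0 in the median CCD library.

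Acid and base transport marked the intercalated cells of CCD. Of 22 genes tested, 10 were at least 2-fold higher in CCD and 2 lower. Slc26a4, the apical chloride bicarbonate exchanger pendrin of type B cells, read 1135 to 2283 TPM (median 1852.5) in CCD and 0.90 to 11.7 TPM (median 1.71) in cTAL. Slc4a9, a basolateral anion exchanger of the same cells, read 273 to 893 TPM (median 626) and 0.34 to 8.28 TPM (median 0.65). Slc4a1, the exchanger of type A cells, read 136 to 812 TPM (median 391) in CCD and 0.20 to 1.73 TPM (median 0.465) in cTAL. The differences were 9.07, 8.12 and 7.82, all without overlap. In cTAL the commonest member of the Slc4a1 family was Slc4a2, a widespread anion exchanger, which read 11.7 to 31.8 TPM (median 25.3) there and 15.6 to 36.2 TPM (median 23.6) in CCD (difference 0.12, limma, adjusted p = 0.468, -0.15 with median-of-ratios scaling). The ammonia channels Rhcg and Rhbg read 1085 to 2856.5 TPM (median 2273) and 663 to 2678 TPM (median 1545) in CCD, and no cTAL library exceeded 10.9 or 22.9 TPM.

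Carbonic anhydrases, which make bicarbonate and protons, were exchanged too. Car2, the cytosolic enzyme, read 2029.5 to 3761 TPM (median 2766.5) in CCD and 237 to 307 TPM (median 262) in cTAL. Car4, the enzyme anchored on the outer membrane face, read 336 to 500.0 TPM (median 426) in cTAL, and no CCD library exceeded 2.0 TPM, a difference of -8.07. Car12, a membrane enzyme, was high in both, with 502 to 1747 TPM (median 1136) and 597 to 1076 TPM (median 748). Of the family's summed TPM, Car2 held 52.4 to 75.5% in CCD and Car12 39.7 to 59.3% in cTAL.

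The proton pump differed by isoform. Of its 22 tested subunit genes, 13 were at least 2-fold higher in CCD and none lower, and the median difference was 1.68. Summed over the subunits, CCD libraries read 18294 to 22002 TPM and cTAL libraries 4487 to 5508 TPM, a difference of 14901 TPM between the means (permutation test, p = 1e-05, the smallest that 100000 resamples can give, adjusted p = 1.2e-05). Atp6v1g3, the kidney form of the G subunit, read 1967 to 3237 TPM (median 2629) in CCD and 2.14 to 16.9 TPM (median 6.43) in cTAL, while the widespread Atp6v1g1 read 391 to 502 TPM (median 439) and 303 to 431 TPM (median 353). The C subunit showed the same split, with Atp6v1c2 at 464 to 770.5 TPM (median 531) and 3.47 to 18.5 TPM (median 6.15), and Atp6v1c1 at 92.6 to 157 TPM (median 133) and 90.8 to 121 TPM (median 111). As a share of the 2 forms, Atp6v1c2 held 76.7 to 84.7% in CCD and 3.06 to 15.9% in cTAL, and Atp6v1g3 held 80.1 to 86.9% of the G subunits in CCD and 0.541 to 4.64% in cTAL. For the B subunit, Atp6v1b1 held 74.6 to 85.8% in CCD and 31.8 to 54.2% in cTAL, where Atp6v1b2 made up the rest. For the a subunit, only Atp6v0a4 and Atp6v0a1 were compared, and Atp6v0a2 did not match the table. Between those 2 genes there was no switch: Atp6v0a4 held at least 93.4% of their summed TPM in every library of either segment. Its level was 565 to 1230.0 TPM (median 870.0) in CCD and 109 to 216 TPM (median 157) in cTAL.

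**Figure D3:**
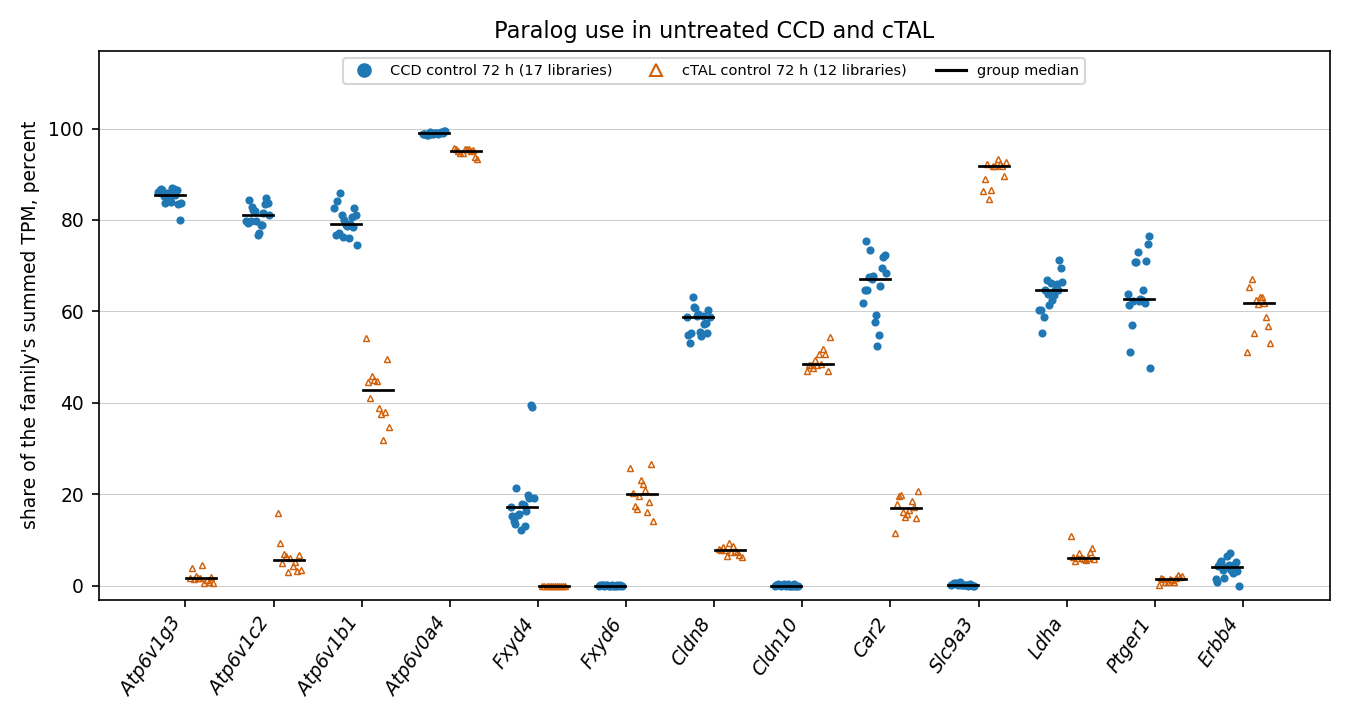
Share of a family's summed TPM (percent) held by the named member in each library, CCD as filled circles and cTAL as open triangles. Atp6v1g3, Atp6v1c2 and Ldha hold at least 55.3% in every CCD library and at most 15.9% in every cTAL library. Atp6v0a4, set against Atp6v0a1 alone, holds at least 93.4% in both segments.

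Calcium and magnesium genes leaned to cTAL. Of 21 tested, 7 were at least 2-fold higher in CCD and 10 lower. Casr, the calcium-sensing receptor, read 331 to 875 TPM (median 515) in cTAL and 25.0 to 90.3 TPM (median 57.5) in CCD. Ppp1r1a and Ppp1r1b, inhibitors of protein phosphatase 1, were high in 1 segment and low in the other: Ppp1r1a read 2595.5 to 3407 TPM (median 2979.9) in cTAL and 0.74 to 9.1 TPM (median 3.94) in CCD. Ppp1r1b read 116 to 688 TPM (median 283) in cTAL and 0 to 1.18 TPM (median 0.30) in CCD. Kl, the FGF23 coreceptor Klotho, read 20.2 to 106 TPM (median 68.1) in cTAL and 1.94 to 12.7 TPM (median 4.96) in CCD. Genes of transcellular calcium transport were on the CCD side at lower levels: Calb1, calbindin D28k, read 39.6 to 273 TPM (median 109) in CCD and 0.28 to 45.2 TPM (median 9.59) in cTAL with overlapping groups. Slc8a1, the sodium calcium exchanger, read 5.12 to 14.5 TPM (median 7.76) in CCD and 0 to 2.87 TPM (median 0.83) in cTAL without overlap. Both genes are also on the marker list of the distal convoluted and connecting tubule, whose sum was higher in CCD by the medians, and the part of such cells in their difference was not tested.

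Claudins, which set what passes between cells, divided into 2 groups. Cldn10 read 1026.5 to 1225 TPM (median 1127) in cTAL and 0.28 to 6.83 TPM (median 1.7) in CCD and held 46.9 to 54.4% of all claudin TPM in cTAL. Cldn16 and Cldn19, which together open the path for magnesium and calcium, read 332 to 517 TPM (median 426) and 362 to 443 TPM (median 384) in cTAL, and 15.2 to 29.2 TPM (median 23.1) and 78.6 to 156 TPM (median 118) in CCD. Cldn14, which blocks that path, was low in cTAL at 1.56 to 26.0 TPM (median 8.63) and was listed at 0 in the median CCD library. In CCD, Cldn8 held 53.1 to 63.2% of claudin TPM, with 670.2 to 1227 TPM (median 1047) against 140.4 to 225 TPM (median 174) in cTAL. Cldn4, its partner in the chloride path of the collecting duct, read 170.0 to 326 TPM (median 251) against 15.9 to 59.6 TPM (median 45.8). Cldn9 read 56.0 to 99.6 TPM (median 78.8) in CCD and 0.05 to 4.75 TPM (median 0.94) in cTAL. Of 22 claudin and tight junction genes, 10 were at least 2-fold higher in CCD and 6 lower.

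Carriers for fuels lay mostly with cTAL, where 10 of 21 were at least 2-fold higher and 3 lower. Slc2a4, the insulin-regulated glucose carrier GLUT4, read 16.5 to 108 TPM (median 83.9) in cTAL and 0.03 to 1.74 TPM (median 0.82) in CCD. Slc5a1, the sodium glucose cotransporter SGLT1, read 20.8 to 150.2 TPM (median 47.5) in cTAL, and no CCD library exceeded 0.66 TPM. Slc1a1, a glutamate carrier, read 30.0 to 94.4 TPM (median 72.3) and 0.99 to 7.3 TPM (median 2.37). Slc2a1, the general glucose carrier GLUT1, was close in the segments, with 74.1 to 156 TPM (median 131) in CCD and 59.0 to 132 TPM (median 95.2) in cTAL. Slc16a3, the lactate exporter MCT4, ran the other way, with 19.5 to 74.0 TPM (median 31.1) in CCD and 0.57 to 4.38 TPM (median 2.0) in cTAL.

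Hormone receptors separated the segments in both directions, with 7 of 30 at least 2-fold higher in CCD and 11 lower. Avpr2, the vasopressin receptor that raises cAMP, read 408 to 869 TPM (median 694) in CCD and 20.5 to 84.0 TPM (median 64.4) in cTAL, so both segments held it and they did not overlap. Avpr1a, the vasopressin receptor that raises calcium, read 39.5 to 90.8 TPM (median 80.8) in CCD, and no cTAL library exceeded 1.34 TPM. Sctr, the secretin receptor, read 13.2 to 35.7 TPM (median 23.1) and 0.07 to 8.79 TPM (median 4.0). In cTAL the receptors of other cAMP hormones led: Pth1r, for parathyroid hormone, read 295 to 597 TPM (median 377) in cTAL and 2.88 to 21.5 TPM (median 8.22) in CCD. Gcgr, for glucagon, read 188 to 432 TPM (median 312) in cTAL and 59.6 to 136 TPM (median 89.0) in CCD. Calcr, for calcitonin, was low in both, with 2.87 to 26.1 TPM (median 9.77) and 0.95 to 6.05 TPM (median 3.45) and overlapping groups. Agtr1a, for angiotensin II, read 18.8 to 76.3 TPM (median 46.8) in cTAL and 0.09 to 10.3 TPM (median 1.34) in CCD. Insr, the insulin receptor, read 4.04 to 13.5 TPM (median 8.25) and 4.02 to 12.9 TPM (median 7.11) and did not pass the test (difference 0.03, limma, adjusted p = 0.912), with a difference of -0.23 under median-of-ratios scaling.

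Receptors of local mediators leaned to CCD, with 11 of 21 at least 2-fold higher there and 6 lower. The receptors of prostaglandin E2 changed places: Ptger1 read 24.4 to 116 TPM (median 74.6) in CCD and 0.40 to 6.74 TPM (median 3.85) in cTAL. Ptger3 read 16.3 to 58.8 TPM (median 24.0) in CCD and 145 to 359 TPM (median 248) in cTAL. Ptger1 held 47.6 to 76.6% of the family's TPM in CCD and Ptger3 91.5 to 98.0% in cTAL. Ptger4 was low in both, and its difference of 0.54 changed sign between sets (-0.82 to 0.69). The value of -0.82 was that of the first set, with 1 cTAL library. On the means of sets its call was lost (limma, adjusted p = 0.539). Receptors of metabolites were without overlap: P2ry14, which senses UDP-glucose, read 106 to 321 TPM (median 227) in CCD and 0.33 to 9.38 TPM (median 3.72) in cTAL. Oxgr1, which senses alpha-ketoglutarate, read 79.9 to 264 TPM (median 168) in CCD and 0.17 to 15.3 TPM (median 4.4) in cTAL. P2ry2, the ATP receptor that curbs sodium and water uptake, read 7.92 to 30.9 TPM (median 18.7) and 0 to 3.91 TPM (median 2.52). Adgrf5, an adhesion receptor, read 98.3 to 443 TPM (median 210.0) and 5.04 to 17.7 TPM (median 12.1).

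Among 44 growth factor and cytokine receptors, 12 were at least 2-fold higher in CCD and 10 lower, and 10 and 13 with median-of-ratios scaling. Kit, the stem cell factor receptor, read 64.2 to 294 TPM (median 140.0) in CCD and 0.15 to 2.42 TPM (median 0.305) in cTAL. Bmpr1b, a receptor of bone morphogenetic proteins, read 19.7 to 66.8 TPM (median 42.4) and 0 to 0.41 TPM (median 0.155). Fzd1, a Wnt receptor, read 37.4 to 73.9 TPM (median 57.5) in CCD and 2.8 to 8.61 TPM (median 3.36) in cTAL. The members of the EGF receptor family differed in their shares. Egfr held 30.6 to 54.1% of its summed TPM in CCD and at most 4.59% in cTAL, with 7.06 to 20.9 TPM (median 14.8) and 0 to 2.47 TPM (median 1.65). Erbb4 held 51.1 to 67.1% in cTAL and at most 7.17% in CCD, with 18.8 to 55.9 TPM (median 34.6) and 0.01 to 3.85 TPM (median 1.31). Among the FGF receptors, Fgfr2 held 51.9 to 76.9% in CCD and 11.6 to 31.0% in cTAL. In cTAL the largest shares were those of Fgfr1, at 21.9 to 47.3%, and Fgfr4, at 31.3 to 45.8%.

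**Figure D4:**
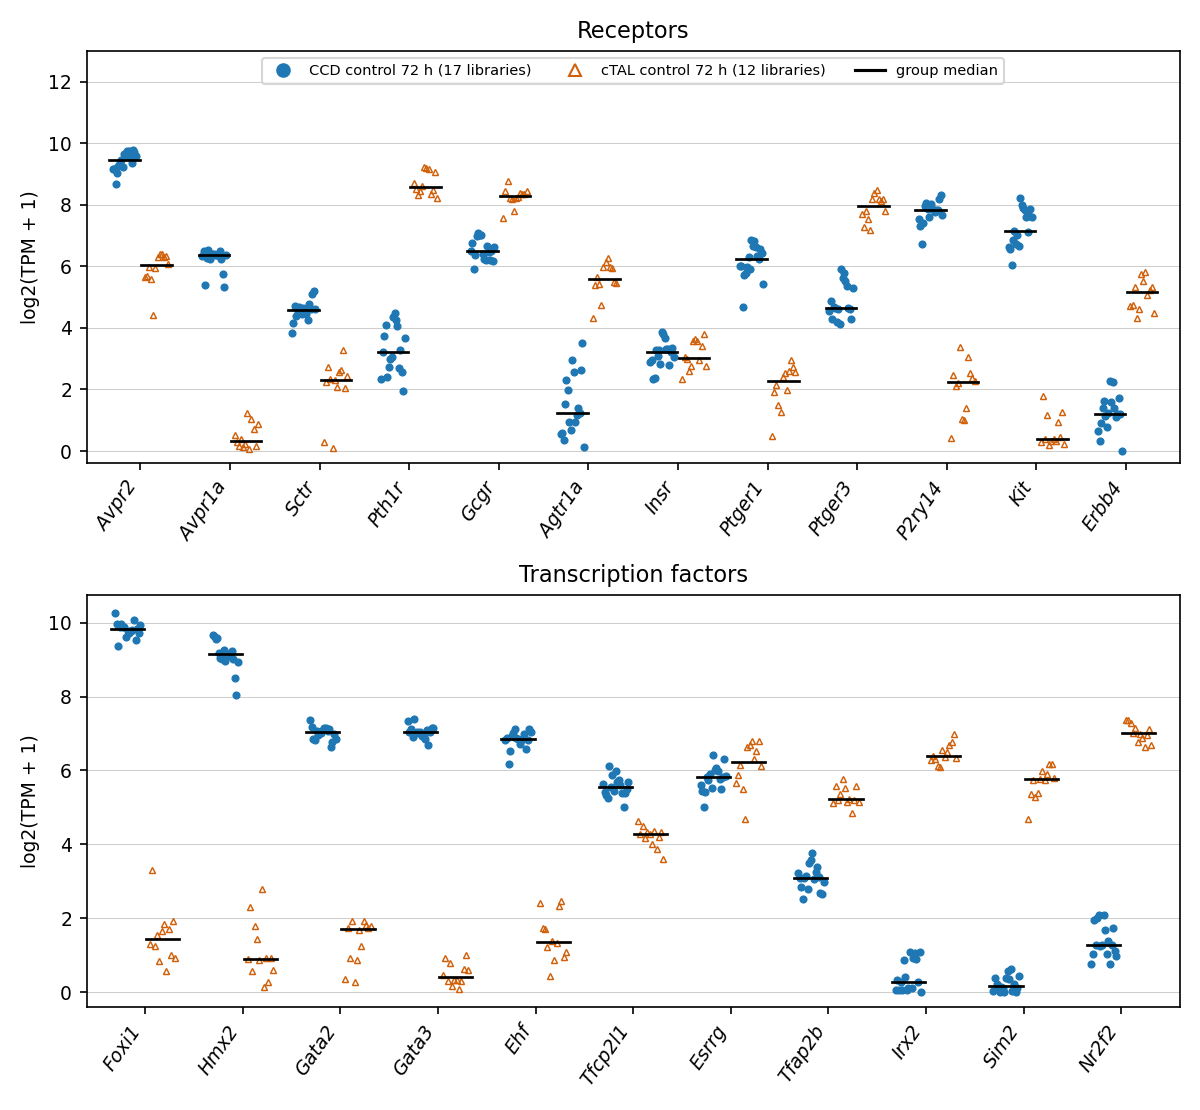
Level of 12 receptor genes and 11 transcription factor genes in each library on the scale log2(TPM + 1), CCD as filled circles and cTAL as open triangles, with a short line at each median. Avpr1a, Kit, Foxi1 and Gata3 lie high in CCD and low in cTAL, Irx2, Sim2 and Nr2f2 lie the other way, and Insr and Esrrg overlap between the segments.

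The main enzyme that makes cAMP overlapped between the segments, and lower forms differed. Adcy6, the adenylyl cyclase with the highest level in both segments, read 9.54 to 23.4 TPM (median 16.5) in CCD and 11.8 to 25.5 TPM (median 18.5) in cTAL and did not pass the test (difference -0.09, limma, adjusted p = 0.585), but did with median-of-ratios scaling (-0.36, limma, adjusted p = 0.0053). The lower cyclases differed: Adcy9 read 2.16 to 4.5 TPM (median 2.91) in CCD and 0 to 0.35 TPM (median 0.065) in cTAL, Adcy5 0.12 to 5.38 TPM (median 2.29) and 0 to 0.18 TPM (median 0). Adcy1 read 0 to 0.24 TPM (median 0) in CCD and 0.02 to 4.53 TPM (median 1.79) in cTAL. Pde3b, a phosphodiesterase that breaks down cAMP, read 7.95 to 26.0 TPM (median 14.5) in CCD and 0 to 1.13 TPM (median 0.365) in cTAL. Prkar1b, a regulatory subunit of protein kinase A, read 0 to 1.98 TPM (median 0.95) and 6.93 to 13.1 TPM (median 9.82). Of 34 genes of this list, 6 were at least 2-fold higher in CCD and 8 lower.

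Transcription factors of the distal nephron differed between the segments in both directions. Of 58 tested, 18 were at least 2-fold higher in CCD and 14 lower, against 11.5% and 9.88% of all genes, with 17 and 11 of the 58 free of overlap. Foxi1, the forkhead factor of intercalated cells, read 662 to 1212 TPM (median 901) in CCD and 0.48 to 8.99 TPM (median 1.71) in cTAL, a difference of 8.33 (SE 0.15, limma, adjusted p = 4.15e-50). Hmx2 read 264 to 813 TPM (median 565) and 0.11 to 5.98 TPM (median 0.875). Dmrt2 read 86.1 to 203 TPM (median 128) in CCD and 0.07 to 1.36 TPM (median 0.195) in cTAL. Gata2 and Gata3, zinc finger factors of the collecting duct, read 97.9 to 165 TPM (median 129) and 103 to 167 TPM (median 130.0) in CCD, and no cTAL library exceeded 2.81 or 1.02 TPM. Ehf and Elf5, ETS factors of epithelia, were far apart in level, with 71.7 to 138 TPM (median 114) and 1.91 to 14.9 TPM (median 4.76) in CCD, and both were higher there. Tfcp2l1, a grainyhead-like factor of the collecting duct, read 31.0 to 69.0 TPM (median 45.7) in CCD and 11.1 to 23.9 TPM (median 18.4) in cTAL.

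On the cTAL side, Irx2 and Irx1, homeobox factors of the intermediate nephron, read 67.9 to 126 TPM (median 82.3) and 31.9 to 78.1 TPM (median 47.2), against 0 to 1.14 TPM (median 0.22) and 1.82 to 6.11 TPM (median 2.7) in CCD. Sim2 read 24.7 to 71.1 TPM (median 53.4) in cTAL and 0 to 0.56 TPM (median 0.12) in CCD, while its relative Sim1 differed by 0.42, with 9.18 to 14.4 TPM (median 12.7) in cTAL and 6.64 to 28.3 TPM (median 17.9) in CCD, a call that was lost on the means of sets (limma, adjusted p = 0.106). Nr2f2, an orphan nuclear receptor also known from vessels, read 98.4 to 164 TPM (median 127) in cTAL and 0.70 to 3.25 TPM (median 1.43) in CCD. Endothelial markers were higher in the same cTAL libraries, and their part in Nr2f2 was not tested. Tfap2b, an AP-2 factor, read 28.1 to 53.3 TPM (median 36.2) and 4.73 to 12.5 TPM (median 7.56), and its relative Tfap2a was low in both, at 0.50 to 2.52 TPM (median 1.0) in CCD. Esrrb, an oestrogen related receptor, read 1.07 to 17.6 TPM (median 12.5) in cTAL and no CCD library exceeded 0.05 TPM. Esrrg, the leading member of that family in both segments, read 31.5 to 84.7 TPM (median 55.3) in CCD and 24.9 to 111 TPM (median 73.6) in cTAL and did not pass the test (difference -0.37, limma, adjusted p = 0.0619), but did with median-of-ratios scaling (-0.65, limma, adjusted p = 5.93e-05).

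Other factors were read well in both segments. Pou3f3 read 12.1 to 21.3 TPM (median 17.1) in CCD and 15.5 to 31.2 TPM (median 20.6) in cTAL (difference -0.23, limma, adjusted p = 0.0792), and passed the test with median-of-ratios scaling (-0.50, limma, adjusted p = 5.97e-06). Pax8 was high in both and higher in CCD, with 107 to 235 TPM (median 186) against 49.0 to 81.9 TPM (median 61.9). Hox genes, which keep the record of body position, differed by cluster members: Hoxd3 read 18.2 to 34.3 TPM (median 23.4) in CCD and 0.25 to 2.28 TPM (median 0.675) in cTAL, whereas Hoxd10 read 0.43 to 4.62 TPM (median 2.21) and 35.3 to 49.2 TPM (median 41.1), Hoxc10 0 to 0.66 TPM (median 0.07) and 15.7 to 31.0 TPM (median 21.7). Hoxc6 read 0 to 0.68 TPM (median 0) in CCD and 11.4 to 17.6 TPM (median 14.4) in cTAL. Hoxb7, the gene whose promoter is used to mark the collecting duct, was present in both, with 148 to 182 TPM (median 164) and 52.3 to 89.3 TPM (median 77.2). Of 19 Hox genes tested, 4 were at least 2-fold higher in CCD and 5 lower.

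Glycolysis genes differed between the segments in isoforms and, by a smaller fold, in their sum. Summed over the list, CCD libraries read 10215 to 12641 TPM and cTAL libraries 12265 to 14628 TPM, a difference of -1679 between the means (permutation test, adjusted p = 1.2e-05). Without Ldha and Ldhb, the lactate dehydrogenase pair, the sum was 371 TPM higher in CCD (8239 to 10118 against 8058 to 9693 TPM), and the pair alone differed by -2050 TPM. The median difference of the 23 genes tested was 0.08, with 7 called higher in CCD and 6 lower, and it was -0.17 with median-of-ratios scaling. The list holds abundant genes that differed little, such as Aldoa with 3158 to 4168 TPM (median 3757) in CCD and 2772.4 to 3229 TPM (median 3082) in cTAL and Gapdh with 1539.5 to 2045 TPM (median 1787) and 1543.4 to 1920.5 TPM (median 1667). The difference of 0.28 for Aldoa passed the test and became -0.01 with median-of-ratios scaling. The last step was exchanged. Ldha, the lactate dehydrogenase subunit of tissues that make lactate, read 1193 to 1787 TPM (median 1543) in CCD and 251 to 458 TPM (median 272) in cTAL. Ldhb, the subunit of oxidative tissues, read 698 to 1024 TPM (median 885) in CCD and 3623 to 4703 TPM (median 4229) in cTAL. The differences were 2.38 (SE 0.065) and -2.26 (SE 0.0529), without overlap, and Ldha held 55.3 to 71.2% of the family in CCD and 5.44 to 11.0% in cTAL. Hk1, the main hexokinase of both segments, read 43.8 to 146 TPM (median 93.0) and 33.3 to 137 TPM (median 106) and did not pass the test (limma, adjusted p = 0.701), with a difference of 0.08 that was -0.20 under median-of-ratios scaling. Hk2, the insulin-responsive hexokinase, read 2.63 to 7.1 TPM (median 4.98) in cTAL and 0 to 0.44 TPM (median 0.02) in CCD. Of 23 glycolysis genes, 3 were at least 2-fold higher in CCD and 3 lower, near the background.

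Oxidative genes were higher in cTAL by small and even steps. Of 44 nuclear genes of oxidative phosphorylation, 36 were called lower in CCD and 1 higher, against 20.3% and 46.9% of all genes, but only 2 of them at 2-fold, and the median difference was -0.39. Atp5b, the beta subunit of ATP synthase, read 4859 to 6058.5 TPM (median 5662) in CCD and 5892 to 7429 TPM (median 6899) in cTAL. The 2 were Ndufb9, a complex I subunit with 913 to 1273 TPM (median 1073) in CCD and 1861 to 2798 TPM (median 2205) in cTAL, and the low Cox4i2, a cytochrome oxidase subunit, with 0 to 1.0 TPM (median 0.26) and 0 to 8.93 TPM (median 2.03). The call of Cox4i2 was lost on the means of sets (limma, adjusted p = 0.0917), and its set range was -1.87 to 0.17. All 12 mitochondrially encoded genes tested were called lower in CCD, none at 2-fold, with a median of -0.63. Among 39 genes of the citrate cycle and of pyruvate use, 23 were called lower in CCD and 4 higher. Idh2, the mitochondrial NADP-linked isocitrate dehydrogenase, read 2818 to 3945 TPM (median 3145) in cTAL and 866 to 1341 TPM (median 1079) in CCD. Idh1, its cytosolic counterpart, read 15.6 to 65.2 TPM (median 40.0) in cTAL and 73.4 to 129 TPM (median 97.5) in CCD, so the pair ran in opposite directions. Ppargc1a, the coactivator PGC-1 alpha that drives mitochondrial genes, read 34.1 to 121 TPM (median 73.6) in CCD and 37.0 to 157 TPM (median 116) in cTAL with overlap. Its difference of -0.56 passed the test over all libraries and became -0.29 without the fourth set (limma, adjusted p = 0.238).

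Fatty acid and ketone genes followed the same side, with 8 of 33 at least 2-fold lower in CCD and 1 higher. Cpt1b, the muscle form of the enzyme that admits fatty acids to mitochondria, read 33.0 to 116 TPM (median 63.7) in cTAL and 1.0 to 5.61 TPM (median 1.97) in CCD, and Cpt1a, the liver form, was higher than Cpt1b in both, with 146 to 333 TPM (median 196) and 70.2 to 173 TPM (median 118). Oxct1, the enzyme that activates ketone bodies for burning, read 369.6 to 956 TPM (median 839) and 282 to 431 TPM (median 370.0). Slc6a8, the creatine carrier, read 10.8 to 34.5 TPM (median 20.0) in cTAL and 0.08 to 7.72 TPM (median 2.47) in CCD. Ckb, the brain form of creatine kinase, read 607 to 1237 TPM (median 842) in CCD and 246 to 1140.5 TPM (median 702) in cTAL with overlap, and its call was lost on the means of sets (limma, adjusted p = 0.0603). Prkag2, a regulatory subunit of the AMP-activated kinase, read 40.6 to 67.6 TPM (median 46.8) in CCD and 13.3 to 21.5 TPM (median 17.1) in cTAL. Pygb, a glycogen phosphorylase, read 34.4 to 81.6 TPM (median 63.8) and 6.7 to 24.7 TPM (median 21.3). Tkt, the transketolase of the pentose phosphate path, read 153 to 227 TPM (median 191) in CCD and 321 to 575 TPM (median 449) in cTAL.

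A few prostaglandin genes differed strongly between the segments. Ptgs1, the constitutive cyclooxygenase, read 43.5 to 115.5 TPM (median 85.1) in CCD and 0.10 to 6.42 TPM (median 1.97) in cTAL. Ptges, the microsomal prostaglandin E synthase, read 577 to 980.0 TPM (median 760.0) in CCD and 1.16 to 22.5 TPM (median 4.04) in cTAL, both without overlap. Akr1c19, an aldo-keto reductase, read 52.5 to 206 TPM (median 77.1) and 0.10 to 4.77 TPM (median 1.83). Ptgs2, the inducible cyclooxygenase, was on the cTAL side with 0.24 to 386 TPM (median 75.6), and no CCD library exceeded 0.86 TPM. Hpgd, the enzyme that inactivates prostaglandins, read 17.1 to 50.2 TPM (median 34.3) in cTAL and 0 to 6.0 TPM (median 1.42) in CCD. Of 16 genes tested, 3 were at least 2-fold higher in CCD and 2 lower, near the background, and the median difference was -0.13.

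Genes outside these lists that were among the 15 most different in a direction were Muc20, Hepacam2 and A4galt in CCD and Tmem207, Plau, Spon1, Cxcl12, Cyp2s1 and Lipg in cTAL. Muc20, a membrane mucin, read 688 to 1413.5 TPM (median 1007) in CCD and 0.50 to 9.45 TPM (median 1.46) in cTAL. A4galt, which makes the globo series of glycolipids, read 386 to 574 TPM (median 471) in CCD and 0.25 to 3.27 TPM (median 0.90) in cTAL. Plau, the urokinase plasminogen activator, read 2296 to 3718 TPM (median 3263) in cTAL and 17.8 to 70.5 TPM (median 29.9) in CCD. Lipg, endothelial lipase, read 60.1 to 149 TPM (median 88.6) and Cxcl12, a chemokine, 85.0 to 181 TPM (median 114) in cTAL, and neither exceeded 2.81 TPM in any CCD library.

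Within a segment, a few genes varied far more than the rest, and they did so by set or by library. In cTAL, Ptgs2 was uneven. It read 386 TPM in cTAL 1, 90.0, 0.40, 74.6 and 218 in cTAL 2 to 5, 83.2, 103 and 76.7 in cTAL 6 to 8, and 0.24, 27.7, 30.8 and 0.71 in cTAL 9 to 12. Pappa2, a protease of the macula densa, the plaque of cells at the end of the thick limb, read 0.93, 0.44 and 0.06 TPM in the 3 cTAL libraries where Ptgs2 was under 1 TPM, and 4.39 to 41.2 TPM in the other 9. Slc12a1 in those 3 libraries, 2888.4, 3587 and 2695 TPM, lay inside the range of the other 9. The 2 genes were low in the same 3 libraries. The macula densa markers summed to 222 to 641 TPM in cTAL and 57.9 to 145 TPM in CCD. That list also holds Ptger3 (median 248 TPM in cTAL) and Avpr1a (median 80.8 TPM in CCD), which are described here as receptors of the segments. The sum therefore cannot show how much macula densa a library held. The set range of Ptgs2 was -8.54 to -2.64.

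Other genes varied by set. In CCD, Aqp2 read 4306.5 to 5780.1 TPM in libraries 1 to 4, 3434 to 3579.8 in 5 to 8, 6242 to 7328 in 9 to 12 and 3877 to 4906 in 13 to 17, so the second set lay below each of the others. Trpm6, the magnesium channel of the distal convoluted tubule, read 2.39 to 4.79, 3.09 to 5.9 and 5.7 to 9.17 TPM in the first 3 sets and 0 to 0.44 TPM in the fourth. Atp12a, the colonic proton potassium pump, read 3.18 to 4.14 TPM in libraries 9 to 12 and 8.35 to 27.4 TPM in the other 13. Slc4a1 was lowest in libraries 1 to 4, at 136 to 219 TPM, and read 299.9 to 812 TPM in the other 13. In cTAL, Ptgds, a prostaglandin D synthase, read 0.55 TPM in cTAL 1 and 14.9 to 24.6, 28.6 to 49.4 and 28.4 to 73.3 TPM in the other 3 sets. Pck1, phosphoenolpyruvate carboxykinase of the proximal tubule, ran from 4.86 to 76.8 TPM (median 19.5) in CCD and 15.4 to 189 TPM (median 52.6) in cTAL.

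**Figure D5:**
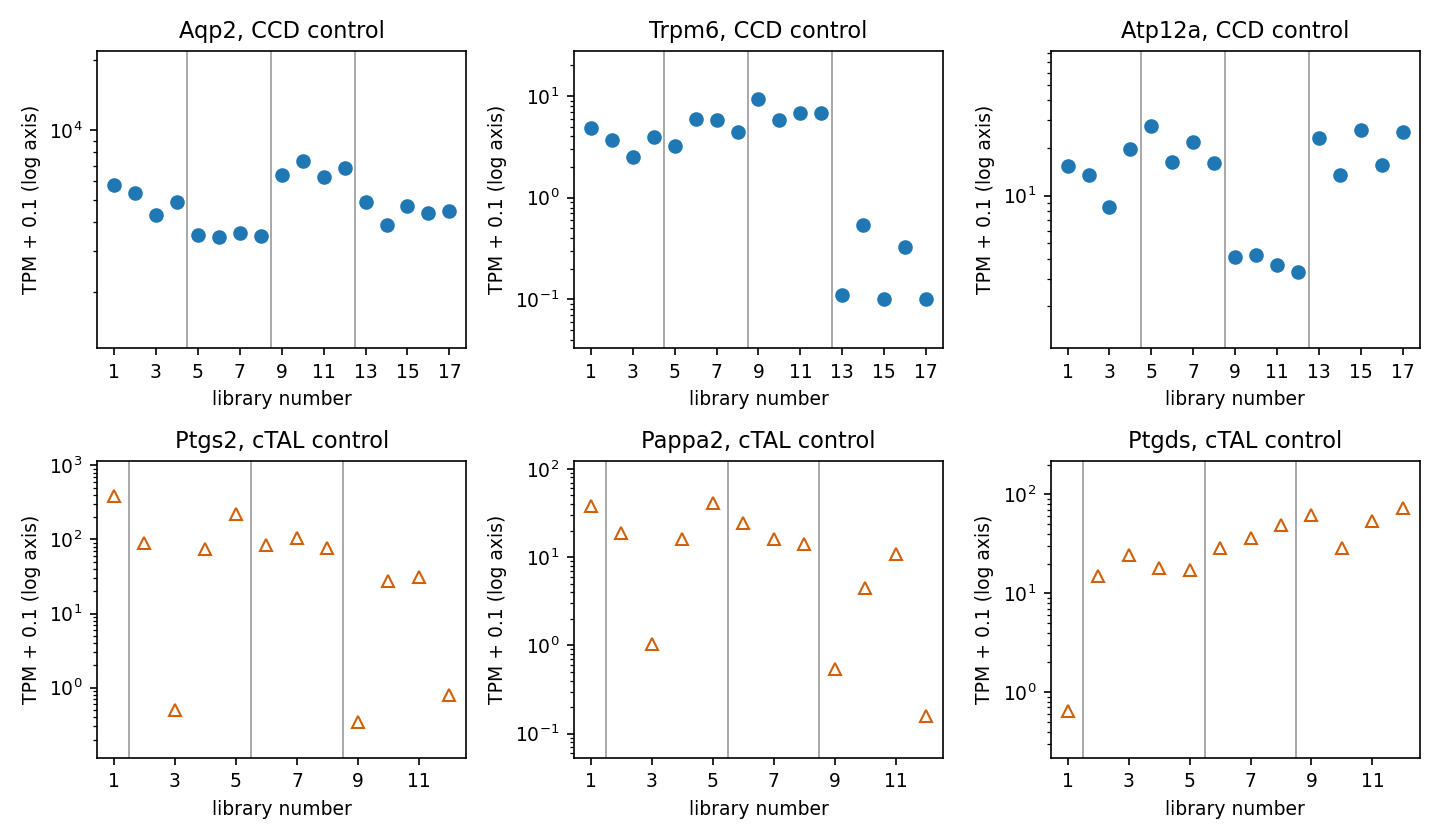
TPM on a log axis (TPM + 0.1) of 6 genes in each library, with libraries in order of their number and a vertical line between the 4 sets. Trpm6 lies at 0.44 TPM or less in CCD 13 to 17, Atp12a at 4.14 TPM or less in CCD 9 to 12, and Ptgs2 and Pappa2 drop together in cTAL 3, 9 and 12.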

How the data were processed

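Messenger RNA of CCD and cTAL was measured as TPM per gene and library. The authors deposited 1 table of TPM for 32754 genes and 75 libraries, rounded to 2 decimals. STAR 2.5.2b, RSEM 1.2.31 and the build Rnor_6.0 were used, per the submitters' processing notes, and the annotation release is not given in the sources used here. TPM keeps no depth, so precision rests on the number and spread of libraries. Because strand is lost in the cDNA step, a gene and an antisense neighbour share reads, and RSEM divides reads shared by paralogs.

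Values on the log2(TPM + 1) scale were fitted with limma 3.58.1 in R 4.3.3, with its trend of spread on level, over the 4 groups at 72 h, which share 1 estimate of the spread. Genes entered at 1 TPM or more in at least 10 libraries, the size of the smallest group. P-values were two-sided. Sums per library were compared with two-sided permutation tests of 100000 resamples, adjusted over 6 measures. On simulated data, the fit recovered 93 of 100 genes changed by a log2 of 1 and 100 of 100 changed by 2, with 10 false calls among 13083 genes. The simulation drew each library independently, without the sets, and changed far fewer genes than were called here. It therefore does not give the error rates of the real comparison.

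The gene lists, families and members were chosen with earlier results of these data known. Of 785 listed symbols 19 did not match the table. Named genes were a fixed panel, up to 3 genes per list and direction, the 15 largest differences in each direction at 10 TPM or more, the leading member of each of 26 families in each segment, and the 5 most variable listed genes per segment. From those genes, 149 are described, and some others are not reported here. Alternatives varied the pseudocount, filter, scaling, groups fitted, trend, blocks, sets of libraries and mitochondrial genes. The replicate numbers pair no samples: of 12 pairs, 4 had a correlation of deviations over 0.1. Figures were drawn with matplotlib 3.10.9 in Python 3.11.15.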

Additional observations from a re-analysis of the deposited data

Results flagged for a closer look

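For 5 measures summed over each library, the difference between CCD and cTAL in controls was not the difference seen in the lithium libraries of the same segments, by a permutation test of the difference itself with 100000 resamples, adjusted over 6 measures. The proton pump subunits summed to 20070 TPM in CCD controls and 5169 TPM in cTAL controls on average, a difference of 14901 TPM, and the difference was 10555 TPM in lithium libraries (permutation test of the 2 differences, adjusted p = 3e-05). The glycolysis genes differed by -1679 TPM in controls and by 1227 TPM in lithium libraries, so the side with more changed (permutation test, adjusted p = 3e-05). The nuclear genes of oxidative phosphorylation differed by -16596 TPM in controls and by -8624 TPM in lithium libraries (permutation test, adjusted p = 0.0253). The 10 highest genes held a share of TPM that was -10.3 percentage points different in controls and -12.9 in lithium libraries (permutation test, adjusted p = 0.0253). The mitochondrially encoded share differed by -4.84 percentage points in controls and by -6.82 in lithium libraries (permutation test, adjusted p = 0.0382). The test shuffled single libraries and ignored the sets. The set range in controls was 13646 to 16073 TPM for the proton pump and -2048 to -1339 TPM for glycolysis. The lithium differences lay outside both. It was -21090 to -3919.5 TPM for oxidative phosphorylation and -13.0 to -7.0 points for the 10 highest genes. Here the lithium differences lay inside. For the mitochondrially encoded share it was -6.45 to -1.84 points. The part of the sets was not tested.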

How the results depend on the processing

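Over 16 alternatives, the total of genes called and the counts called at 2-fold in each direction stayed within 1.5 times their values. At any fold, the genes called higher in CCD fell from 6133 to 3779 with median-of-ratios scaling, a larger change than that. The scaling moved the balance: the 2-fold counts in CCD were 1230 higher and 1448 lower with quantile normalization. They were 1408 and 1410 when TPM was rescaled without mitochondrially encoded genes, there also without AY172581.24. A pseudocount of 0.1 TPM gave 2099 and 1631, and a filter of 5 TPM gave 1305 and 872. Leaving out 1 set at a time gave 1373 to 1705 higher and 1161 to 1371 lower. On the means of sets, 1584 and 1178 genes were called at 2-fold. The replicate block over numbers 1 to 12 gave 1525 and 1283, and the same libraries with no block, chosen after seeing the data, gave 1524 and 1283. The numbers do not pair the samples: correlations ran from -0.196 to 0.234, and 2 of 12 cTAL libraries correlated best with the CCD library of their number, while 10 of 12 did so with a CCD library of their own set. The number of genes at 1 TPM or more, -162 between the means of libraries (permutation test, p = 0.222), was 5.51 on the means of sets. Of the 149 named genes, 7 changed sign in at least 1 alternative, and none was called in both directions. For 3 of them a call was involved: Gapdh, at -0.21 with median-of-ratios scaling, was called only there, and Aldoa (-0.01, same scaling) and Atp5b (0.13, quantile normalization) lost theirs. Slc4a2, Fxyd2, Insr and Hk1 changed sign without a call in either fit. A call was gained in at least 1 alternative by 5 genes, Bsnd, Esrrg, Fxyd2, Pou3f3 and Adcy6, each with median-of-ratios scaling among others. With no change of sign, 13 named genes lost a call in at least 1 alternative, and the causes were not tested. On the means of sets these were Ppargc1a, Kcnj10, Cox4i2, Ckb, Ptger4, Slc34a1, Ptgds, Atp12a, Pck1 and Sim1, with limma adjusted p from 0.051 (Pck1) to 0.539 (Ptger4). Atp6v1c1, Atp6v1g1 and Slc2a1 lost theirs with median-of-ratios scaling. Leaving out a set ended the calls of Slc34a1 (limma, adjusted p = 0.104) and Ptgds (0.0629) for the first set, of Ptger4 (0.0861), Slc34a1 (0.0949), Ptgds (0.131), Pck1 (0.0976) and Sim1 (0.118) for the second, of Ckb (0.0863), Slc34a1 (0.147) and Sim1 (0.146) for the third, and of Ppargc1a (0.238) and Slc34a1 (0.0647) for the fourth. With the replicate block Slc34a1 (0.0649) and Ptgds (0.165) lost theirs, as they did on the same libraries with no block (0.0767 and 0.172), and the block ended no other call of a named gene. Slc34a1 also lost its call with a pseudocount of 0.1 TPM (limma, adjusted p = 0.0616), with no filter on low values (0.0914) and with no trend of spread on level (0.0526). Unknown depth limits what can be said of genes near 0.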
